A study of Mus musculus with 18 samples.

Results

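The genes described here are 10 protein-coding genes of mouse quadriceps muscle that were selected on their measured levels at 17 months: Dnah8, Prune2, Syn2, Hs3st3b1, Hhipl1, Pkhd1, Nedd1, Usp44, Nudt11 and Cuzd1. They were chosen by name from the 15224 genes of the deposited table because they had been seen to differ between old knockout and old control muscle, and all 10 were found there. Their levels at 17 months are therefore given as a description, and the members are tested only between libraries of 2 months, which had no part in the choice. The spread used in those tests was estimated from all 18 libraries, old ones included. Genes outside the 10 are also tested at 17 months.

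The libraries come from C57/Bl6 mice of 3 genotypes, called young at 2 months and old at 17 months, with 3 libraries for each of the 6 combinations. Floxed controls were Pofut1flox/flox and carried no Cre. Cre controls were wild type for Pofut1 and had a Cre driven by skeletal alpha actin sequences, a driver of mature fibres. Knockouts had both this Cre and Pofut1flox/flox, so every knockout library shares the Cre with one control and the floxed alleles with the other. Other cells of the muscle keep the gene, and in whole muscle fewer cells of a type and less RNA per cell cannot be told apart. Nothing in the labels states how many animals stand behind a library, so p values measure the spread between these libraries.

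Pofut1 attaches O-fucose to EGF-like repeats of proteins such as the Notch receptors. The 10 genes belong to no single pathway. Dnah8 encodes a heavy chain of axonemal dynein, the motor of motile cilia and sperm tails, and Pkhd1 encodes fibrocystin, a large membrane protein of primary cilia known from kidney and bile duct. Syn2 encodes synapsin II, a protein of synaptic vesicles, and Prune2 a protein with a BNIP-2 and Cdc42GAP homology domain known from nervous tissue. Hs3st3b1 adds sulfate to heparan sulfate, Hhipl1 is a secreted relative of the hedgehog-interacting protein, and Nudt11 cleaves diphosphoinositol polyphosphates. Nedd1 brings gamma-tubulin to centrosomes and spindles, Usp44 is a deubiquitinase of the spindle checkpoint, and Cuzd1 has CUB and zona pellucida domains and is known from the pancreas.

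Promoters of 3 members with higher levels in old knockout muscle are shown, because Pkhd1 and Prune2 were highest in the same library and Dnah8 was also high at 2 months. Each runs from 250 bases before to 50 bases after a transcription start, from RefSeq on GRCm38.p6. The lines are Dnah8 at chr17:30626686-30626985 on the plus strand, Prune2 at chr19:16955868-16956167 on the plus strand and Pkhd1 at chr1:20618008-20618307 on the minus strand. Capitals mark TGGGAA (the core motif of RBPJ, the DNA-binding partner of Notch), CAGCTG (an E-box of myogenic factors) and TTTGAA (the cell cycle homology region), searched on both strands.
Dnah8: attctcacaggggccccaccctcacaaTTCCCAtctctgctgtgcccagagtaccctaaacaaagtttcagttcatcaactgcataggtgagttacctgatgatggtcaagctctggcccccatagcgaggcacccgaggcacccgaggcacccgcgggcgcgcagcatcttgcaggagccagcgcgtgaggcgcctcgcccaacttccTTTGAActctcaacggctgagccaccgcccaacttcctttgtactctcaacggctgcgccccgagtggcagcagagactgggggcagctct
Prune2: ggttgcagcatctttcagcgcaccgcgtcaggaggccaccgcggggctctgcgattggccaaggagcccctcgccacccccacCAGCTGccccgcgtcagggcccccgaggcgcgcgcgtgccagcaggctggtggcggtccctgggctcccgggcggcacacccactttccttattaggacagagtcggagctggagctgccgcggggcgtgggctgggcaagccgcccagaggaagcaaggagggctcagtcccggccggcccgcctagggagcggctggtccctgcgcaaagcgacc
Pkhd1: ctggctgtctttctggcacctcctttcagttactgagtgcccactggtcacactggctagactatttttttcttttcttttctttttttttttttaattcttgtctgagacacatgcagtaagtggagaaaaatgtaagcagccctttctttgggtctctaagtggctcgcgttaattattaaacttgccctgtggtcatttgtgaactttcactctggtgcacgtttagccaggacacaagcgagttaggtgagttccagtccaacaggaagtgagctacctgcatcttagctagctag
Dnah8 held TTCCCA, which is TGGGAA read on the other strand, and TTTGAA, Prune2 held CAGCTG, and the Pkhd1 window held none of the letters searched. Promoter sequences were matched for 8 members. Members are counted by gene, with a motif in any of its promoters, while the shares are per promoter. Syn2 had 2 promoters, both with TGGGAA. Among the 8 members, TGGGAA was found in 4 (Dnah8, Syn2, Hhipl1 and Nudt11), against 25.6% of the 32851 promoters of this length. CAGCTG was found in 2 (Prune2 and Cuzd1; 16.3% of all promoters) and TTTGAA in 1 (Dnah8; 17.9%). The motifs do not overlap one another in these windows.

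Library totals ran from 24901936 to 31440196 counts, and levels are given in CPM, counts normalised to the scaled library total. The mature fibre list (10 of 10 genes measured, Acta1 and Ckm among them) summed to between 285322 and 482636 CPM in the 18 libraries. Xist was high in 1 library of each young group (n = 3) and in 2 libraries of each old one (n = 3). Pofut1 was at 9.30 to 9.61 CPM in young knockout libraries against 13.8 to 19.6 CPM in the 6 young controls. In old muscle it was 10.6 and 10.5 CPM in knockout replicates 17 and 45. The library labelled old knockout 40, with 16.3 CPM of Pofut1, was within the 12.7 to 18.3 CPM of the old controls. That library is counted as labelled. Values without it are given for the old differences of the members from both controls and for the related genes called.

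At 17 months, 6 members were higher and 4 lower in the knockout than in the average of both controls. The log2 differences were 3.56 for Pkhd1, 2.24 for Dnah8, 1.66 for Prune2, 1.22 for Syn2, 1.20 for Hs3st3b1 and 1.19 for Hhipl1. The negative ones were -1.31 for Nudt11, -1.27 for Cuzd1, -1.0 for Usp44 and -0.92 for Nedd1. By edgeR's quasi-likelihood test all 10 were called at an adjusted p under 0.05, where 1.49% of all genes were called, and for 9 of the 10 the 3 knockout libraries lay wholly outside the range of the 6 old controls, where 8.21% of all genes did. Both counts restate the choice and support nothing. Against old floxed controls alone edgeR called 10 of 10 (3.74% of all genes). Against old Cre controls alone it called 0 of 10 (0.0131% of all genes). All 10 had an unadjusted p under 0.05 in that edgeR test, as 12.8% of all genes did. DESeq2 called 5 of 10 against old Cre controls and gave no adjusted value for the other 5, and its share over all genes was not counted. The old libraries chose the members, so members called or under 0.05 here restate the choice too. Without the library labelled old knockout 40 the differences were larger for Pkhd1 (4.12), Dnah8 (2.62), Prune2 (1.94), Usp44 (-1.26), Cuzd1 (-1.38), Nudt11 (-1.38) and Nedd1 (-1.07), and smaller for Syn2 (1.11), Hs3st3b1 (1.19) and Hhipl1 (1.14). Pkhd1 and Prune2 leaned on 1 library: without old knockout 45 their differences were 2.19 and 0.90.

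**Figure D1:**
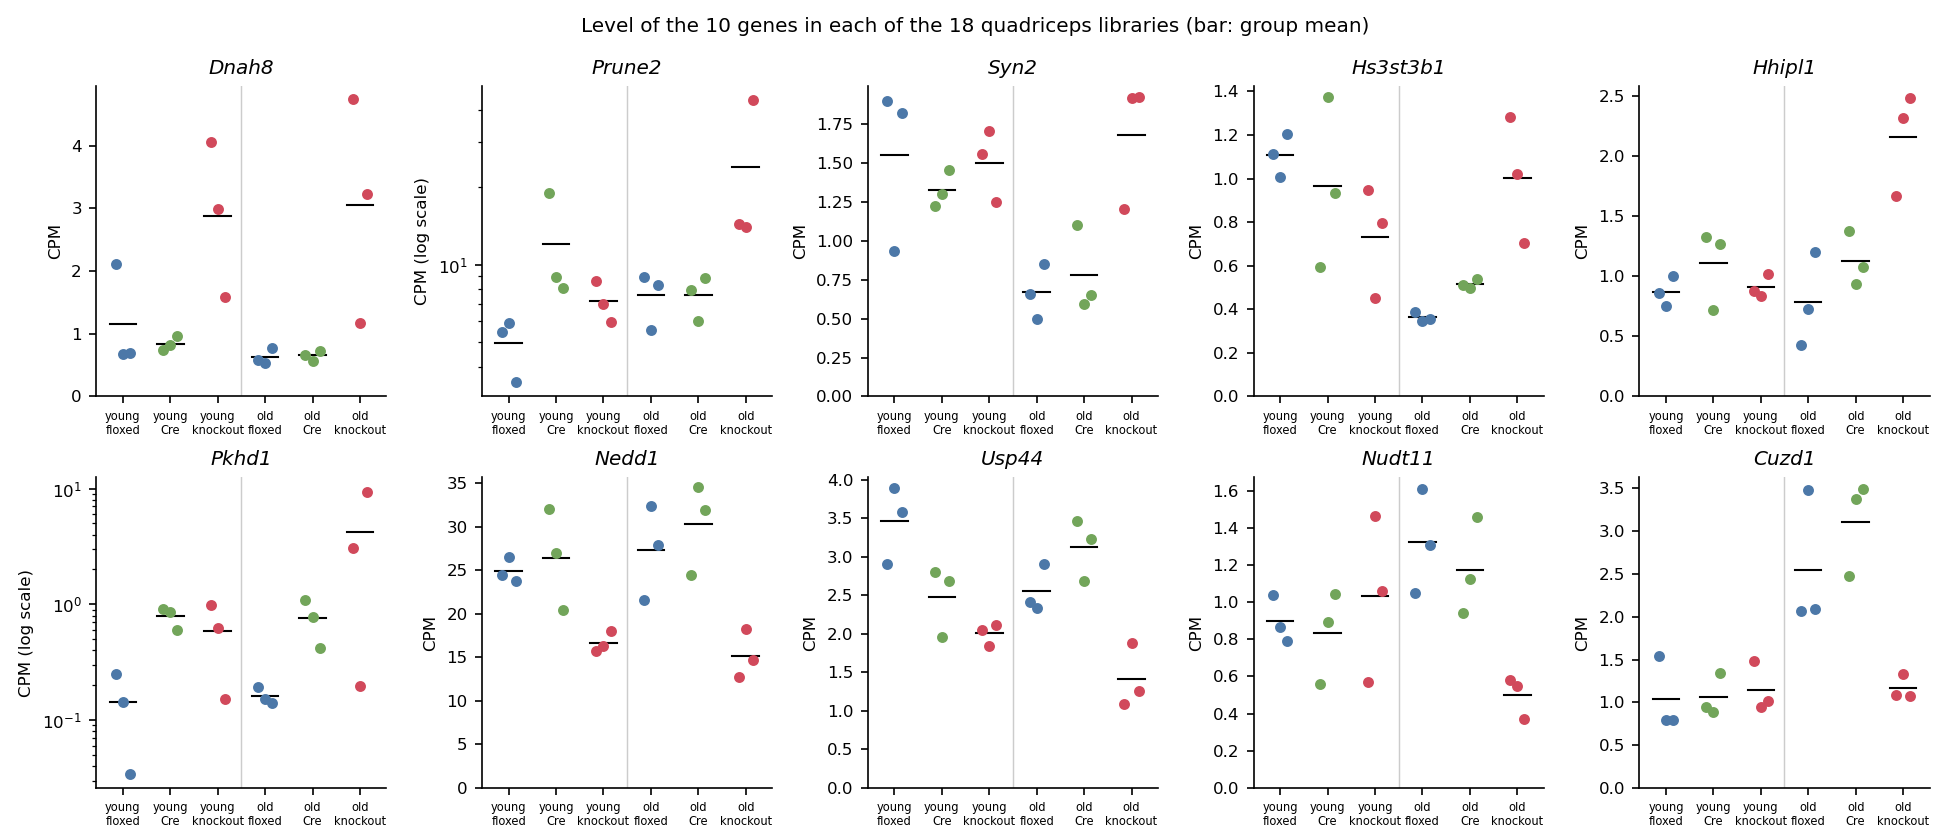
Level of each of the 10 genes in CPM by group, with 1 point per library and a bar at the mean of the 3 libraries; Prune2 and Pkhd1 are on a log axis, the others start at 0. Nedd1 is lower in knockout muscle at both ages, Cuzd1 is high in the old controls, and Pkhd1 is spread from 0.196 to 9.40 CPM over the old knockout libraries.

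Levels compared per kilobase of exon ran over a wide range. In young controls Nedd1 had 6.28 CPM per kilobase, Usp44 0.736, Cuzd1 0.466, Prune2 0.419, Nudt11 0.285, Hs3st3b1 0.211, Syn2 0.205 and Hhipl1 0.177. Dnah8 (0.0374) and Pkhd1 (0.0325) were the lowest, and in old knockout muscle they reached 0.114 and 0.295 CPM per kilobase. Several members were read from few counts: Pkhd1 had 1 to 28 counts in each control library, and Hs3st3b1 9 to 16 counts in each old control.

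Set beside the levels at 2 months, the members fell into 3 patterns, which were drawn after their values were seen. Dnah8, Nedd1 and Usp44 had young knockout means on the same side of the controls as at 17 months, with an unadjusted p under 0.05, and none of the 3 was called by edgeR. Syn2, Hs3st3b1 and Cuzd1 had old knockout means near those of young muscle, while the means of the old controls were lower (Syn2 and Hs3st3b1) or higher (Cuzd1). Hhipl1, Nudt11, Pkhd1 and Prune2 overlapped the controls at 2 months, and their old knockout means were away from the young knockout means. Of these last 4, only Hhipl1 had old knockout libraries that all lay outside the range of the 9 young libraries.

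Dnah8 was higher in knockout muscle at both ages. Young knockout libraries 80, 82 and 83 had 4.06, 3.0 and 1.59 CPM, against 0.684, 0.779 and 2.11 CPM as the lowest, median and highest of the 6 young controls. Only floxed replicate 32, at 2.11 CPM, overlapped the knockout range. The log2 difference was 1.54 (SE 0.397), with an unadjusted p = 0.00133 in edgeR's quasi-likelihood test that did not pass over all genes (adjusted p = 0.24). In old muscle the knockout libraries 17 and 45 had 4.74 and 3.22 CPM. Dnah8 stood at 1.18 CPM for the library labelled old knockout 40. All of them were above the old controls, which lay between 0.536 and 0.778 CPM. Dnah8 lies at chr17:30626935-30875762 on the plus strand of GRCm38, and Glo1, the gene of the detoxifying enzyme glyoxalase 1, overlaps it on the other strand. Glo1 was at 122.9 to 156.0 CPM in young knockout muscle, above the 77.3 to 118.7 CPM of the young controls (log2 difference 0.67, SE 0.173, adjusted p = 0.24 by edgeR), and at 78.2 to 142.1 CPM in old knockout muscle against 82.6 to 130.8 CPM. The strand used for counting is not given in the sources used here, so reads of the overlap cannot be assigned to one gene or the other. The gene most like Dnah8 across the 18 libraries was Ezr, the membrane and actin linker ezrin, which lies on chromosome 17 as well (Pearson r = 0.88, Spearman rho = 0.82).

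Nedd1 showed the least overlap at 2 months. Its young knockout libraries had 15.8, 16.3 and 18 CPM, each below the 20.4 CPM of the lowest young control (median 25.5, highest 32.0 CPM). It was the 1 member whose young groups did not overlap, a state shared by 5.57% of all genes. The mean was 16.7 ± 1.15 CPM (SD, n = 3) against 25.7 ± 3.88 CPM (SD, n = 6), a log2 difference of -0.62 (SE 0.16) with an unadjusted p = 0.0013 and an adjusted p = 0.239 in edgeR. DESeq2 called it at an adjusted p = 0.0462. In old muscle the libraries 17 and 45 had 12.7 and 14.7 CPM, with 18.2 CPM for the library labelled old knockout 40, against 21.5 to 34.5 CPM in old controls, so both ages show the knockout below every control. Usp44 had 2.05, 1.85 and 2.12 CPM in young knockout libraries. The young Cre controls had 1.96 to 2.80 CPM and the young floxed controls 2.90 to 3.89 CPM, so the knockout lay below the floxed controls but overlapped the Cre controls. Its log2 difference from both was -0.55 (SE 0.182, unadjusted p = 0.00867, adjusted p = 0.411 in edgeR). In old muscle Usp44 was at 1.09 and 1.26 CPM in libraries 17 and 45 and for the library labelled old knockout 40 at 1.88 CPM, against 2.34 to 3.46 CPM.

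In total, 3 of the 10 members had an unadjusted p under 0.05 in young knockout against both young controls by edgeR, where 8.53% of all genes did, and 0 were called, where 0.0657% of all genes were (1 of the 10 by DESeq2). Against young floxed controls edgeR called 0 members (0.00657% of all genes called), with a lowest adjusted p of 0.372. Usp44 (log2 -0.78), Nedd1 (-0.58) and Dnah8 (1.31) had unadjusted values under 0.05, as 6.31% of all genes did. Against young Cre controls it called 0 (0.0131% of all genes), with a lowest adjusted p of 0.338. Nedd1 (log2 -0.67) and Dnah8 (1.77) had unadjusted values under 0.05 there, as 8.28% of all genes did. DESeq2 called no member in either comparison, where it called 44 and 47 of all genes. It had 4 and 2 members under the unadjusted threshold, and its share of all genes under that threshold was not counted. In the authors' deposited table the young log2 fold changes of Nedd1 were -0.58 against floxed and -0.67 against Cre controls, with adjusted p of 0.311 and 0.101, those of Dnah8 were 1.31 and 1.77 with adjusted p of 0.396 and 0.0647, and those of Usp44 -0.79 and -0.31 with adjusted p of 0.136 and 0.805. The 2 knockout comparisons share the knockout libraries.

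**Figure D2:**
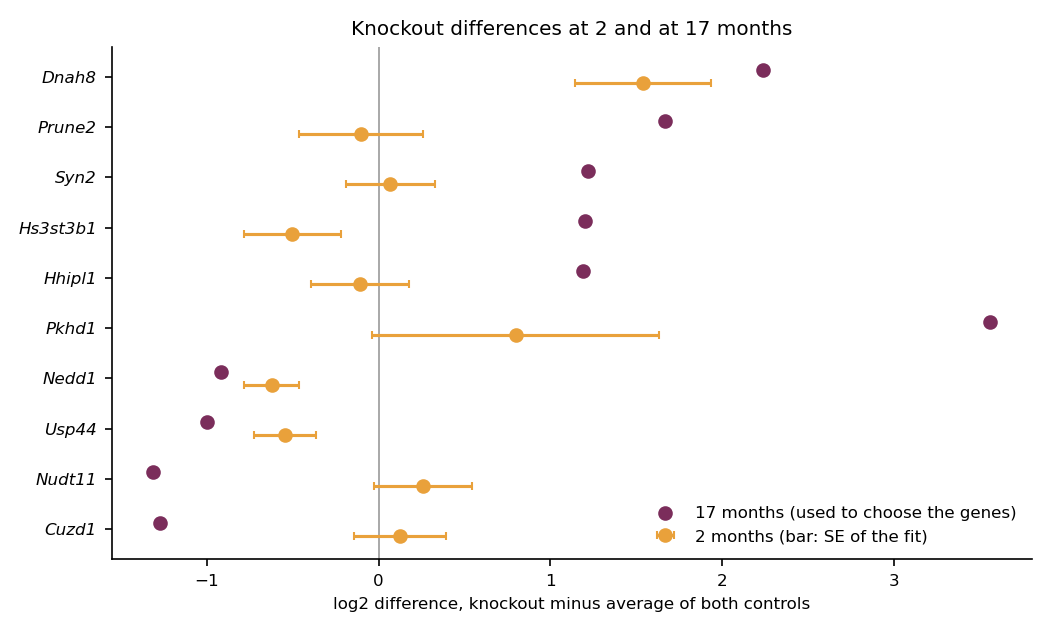
Log2 difference of the knockout from the average of both controls for each gene, at 2 months (with a bar of 1 SE on each side) and at 17 months (points without a bar, since these values chose the genes). Dnah8, Nedd1 and Usp44 lie on the same side of 0 at both ages and away from it, while Syn2, Hhipl1, Prune2, Cuzd1, Nudt11 and Pkhd1 are within 1 SE of 0 at 2 months.

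Nedd1 and Usp44 are neighbours on chromosome 10. Nedd1 lies at chr10:92684745-92722418 on the minus strand and Usp44 at chr10:93819969-93859425 on the plus strand, with starts 1.14 Mb apart and 9 measured genes between them. Of these 9, none was called in either age by edgeR, and 4 had an unadjusted value under 0.05 at 2 months. The widest difference was in Hal, histidine ammonia-lyase, the first enzyme of histidine breakdown, with a log2 difference of 4.0 in old (SE 0.997, adjusted p = 0.0561) and 2.19 in young muscle (SE 0.839, adjusted p = 0.486). Hal levels were either at 0.236 CPM and below or at 5.59 CPM and above. The young knockout libraries had 22.0, 16.3 and 13.3 CPM, above all young controls, of which floxed 32, Cre 93 and Cre 94 had 6.70, 11.5 and 6.98 CPM and the others 0.0688 to 0.105 CPM. Among old libraries, knockout 17 and 45 had 19.9 and 27.1 CPM, and 6.19 CPM was found for the library labelled old knockout 40, while the floxed controls had 5.59 to 8.24 CPM and the Cre controls 0.115 to 0.236 CPM. Nedd1 was at 21.5 to 32.4 CPM in old floxed and 24.4 to 34.5 CPM in old Cre muscle. Snrpf, a core protein of the spliceosome in the same interval, was at 15.2 to 16.8 CPM in young knockout muscle against 18.4 to 24.8 CPM in young controls (log2 -0.42, SE 0.102, adjusted p = 0.212). Around Nedd1, 5 of 23 measured genes starting within 2 Mb had an unadjusted p under 0.05 in the young comparison, around Usp44 5 of 26 and around Dnah8 6 of 45, beside 8.53% of all genes. It was 3 of 18 around Prune2, 4 of 49 around Syn2, 3 of 29 around Hs3st3b1, 1 of 12 around Hhipl1, 0 of 9 around Pkhd1, 1 of 21 around Nudt11 and 2 of 25 around Cuzd1. The windows of Nedd1 and Usp44 overlap, so their counts are not separate. In each, the 5 were the other member and the same 4 genes from between them. The part of the surrounding segment in the levels of Nedd1 and Usp44 was not tested. Why Hal levels leave this gap was not tested either. Near members the genes called in old knockout muscle were Zfand4 (log2 1.04, adjusted p = 0.043) and Rassf4 (0.92, adjusted p = 0.0482) by Syn2, Apaf1 (0.45, adjusted p = 0.0349) by Nedd1 and Tacc2 (0.76, adjusted p = 0.0289) by Cuzd1, all by edgeR.

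**Figure D3:**
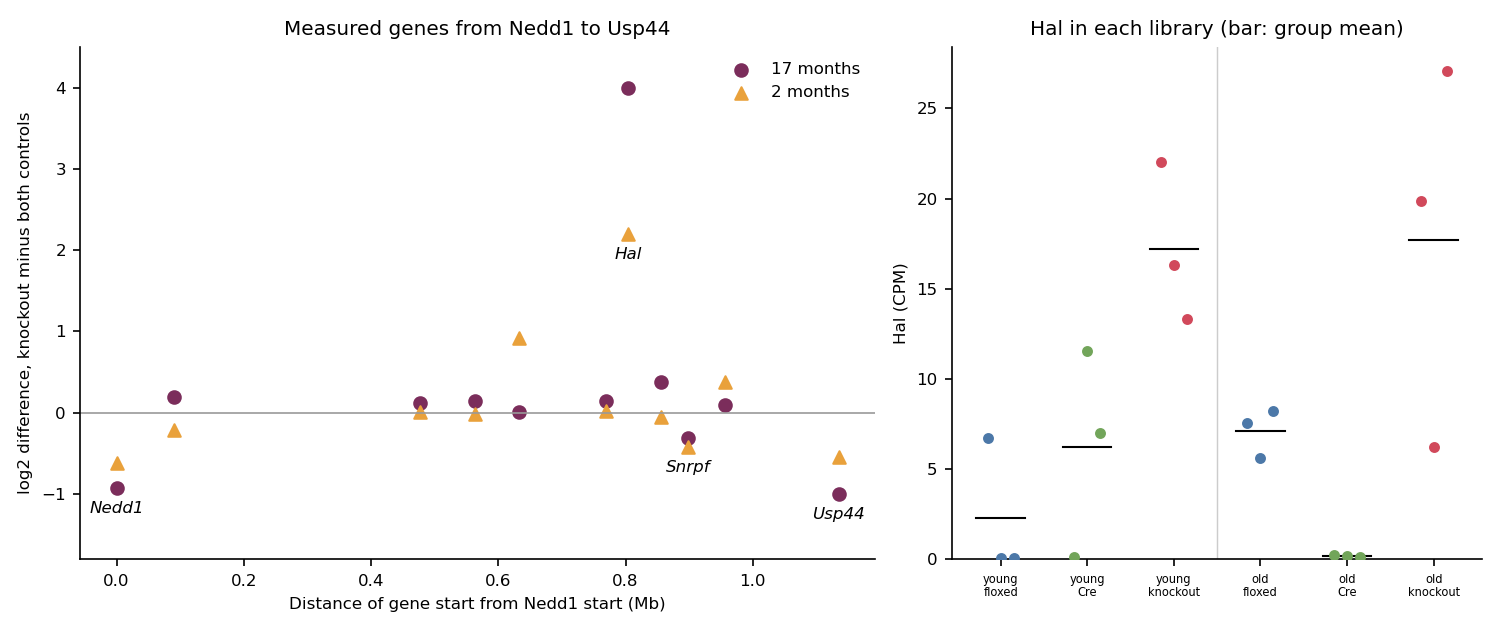
Left, log2 difference of the knockout from both controls for Nedd1, Usp44 and the 9 measured genes between them, by distance of the gene start from that of Nedd1 in Mb, at 17 months (circles) and 2 months (triangles). Right, Hal in CPM in each library with a bar at the group mean. The values leave a gap between 0.236 and 5.59 CPM and show no further clear step above it. Those from 13.3 CPM upward are all from knockout libraries, while the library labelled old knockout 40 is at 6.19 CPM.

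In a second pattern the old knockout level was close to that of young muscle. Cuzd1 had 1.09, 1.33 and 1.07 CPM in the old knockout libraries 17, 40 and 45, and 1.48, 0.941 and 1.02 CPM in the young knockout libraries. The old floxed controls had 2.06, 2.09 and 3.48 CPM and the old Cre controls 2.48, 3.37 and 3.49 CPM, all above the young controls, which ran from 0.792 to 1.54 CPM. So the controls of the 2 ages did not overlap, with log2 differences of old from young of 1.29 in floxed and 1.55 in Cre muscle, against 0.02 in the knockout. In young muscle the knockout difference was 0.13 (SE 0.268; adjusted p = 0.932 by edgeR). In GENCODE M21 Cuzd1 overlaps Fgfr2, a fibroblast growth factor receptor gene, on the same strand, and Fgfr2 was at 0.155 to 0.666 CPM in old knockout against 0.0766 to 0.389 CPM in old control muscle, with overlapping ranges.

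Hs3st3b1 had 1.28, 1.02 and 0.703 CPM in the old knockout libraries 17, 40 and 45, against 0.345 to 0.389 CPM in old floxed and 0.499 to 0.537 CPM in old Cre controls. The young controls had 0.594 to 1.37 CPM, above every old control. The log2 differences of old from young were -1.60 in floxed and -0.90 in Cre muscle and 0.45 in the knockout. In young muscle the knockout was at 0.453 to 0.949 CPM, a difference of -0.50 (SE 0.282; adjusted p = 0.648 by edgeR) in the direction opposite to that at 17 months. Syn2 had 1.20, 1.92 and 1.93 CPM in the old knockout libraries and 1.25 to 1.71 CPM in the young ones. Old controls had 0.498 to 1.10 CPM and young controls 0.936 to 1.90 CPM, and these 2 ranges overlapped. Its log2 differences of old from young were -1.21 in floxed, -0.77 in Cre and 0.16 in knockout muscle. At 2 months the knockout difference of Syn2 was 0.07 (SE 0.26; adjusted p = 0.967 by edgeR). The old control libraries entered the choice of these genes, so their differences from young controls carry no test either. In GENCODE M21 the gene Timp4 overlaps Syn2 on the other strand. Timp4 was at 18.5 to 33.3 CPM in old knockout against 13.9 to 29.4 CPM in old control muscle, with overlapping ranges. With the counting strand not given, reads of that overlap cannot be assigned to one gene or the other.

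The remaining pattern was that of Pkhd1, Prune2, Hhipl1 and Nudt11. Pkhd1, at chr1:20057779-20618082 on the minus strand, had 3.07 and 9.40 CPM in old knockout libraries 17 and 45. For the library labelled old knockout 40 it was 0.196 CPM. The last value was close to those of the old floxed libraries, which had 0.142 to 0.195 CPM. Old Cre controls had 0.422, 0.780 and 1.10 CPM, above the floxed ones, and it was the 1 member whose old knockout libraries overlapped the old controls. Young muscle repeated the gap between the controls, with 0.0344 to 0.251 CPM in floxed and 0.597 to 0.909 CPM in Cre libraries. That young difference was 2.44 on the log2 scale (SE 1.06) with an unadjusted p = 0.0353 and an adjusted p = 1 in edgeR. Young knockout libraries lay at 0.987, 0.627 and 0.151 CPM and spanned most of the range of both controls (difference 0.80, SE 0.835, adjusted p = 0.834).

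Prune2, at chr19:16955668-17223963 on the plus strand, had 14.4, 14.0 and 43.8 CPM in old knockout libraries 17, 40 and 45, against 5.55 to 8.91 CPM in old controls. All 3 were above the controls, with replicate 45 far above the others. In young muscle it was 5.97 to 8.66 CPM in the knockout, 3.48 to 5.94 CPM in floxed and 8.10 to 19.1 CPM in Cre libraries. Cre was above floxed muscle by 1.28 on the log2 scale at 2 months (SE 0.418, unadjusted p = 0.00749, adjusted p = 1 in edgeR), and by 0.00 at 17 months. Together with Usp44 (log2 -0.48, unadjusted p = 0.0311), Prune2 and Pkhd1 were the 3 members under the unadjusted threshold between the young controls in edgeR, as 4.36% of all genes were. There edgeR called 0 of 10 and 0.0131% of all genes. DESeq2 called 0 of 10 and 19 of all genes. It had 3 members under the unadjusted threshold, and its share of all genes under that threshold was not counted.

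Pkhd1 followed Myh3, the embryonic myosin heavy chain of newly formed fibres, closely. Across all 18 libraries the most similar gene to Pkhd1 among 11319 was Myh3 (Pearson r = 0.97, Spearman rho = 0.98 on log2 levels), and the same gene was the most similar to Prune2 (r = 0.81, rho = 0.67). These correlations are descriptions, since the libraries share groups and normalisation. Myh3 was at 69.8 and 232 CPM in old knockout libraries 17 and 45 and for the library labelled old knockout 40 at 13.8 CPM. Old controls lay at 6.90 to 25.7 CPM. The fetal acetylcholine receptor gene Chrng was at 1.01 and 2.63 CPM in libraries 17 and 45 and, for the library labelled old knockout 40, 0.118 CPM, against 0 to 0.314 CPM. Of the list of immature and denervated fibres, 15 of 15 genes were measured, and its summed level was 215.7 to 1094 CPM in old knockout against 204.1 to 311.9 CPM in old control libraries. Libraries 17 and 45 also had the higher sums of fibro-adipogenic markers (7 of 7 measured, 525.3 to 1200 CPM in old knockout against 610.8 to 748.1 CPM) and of macrophage markers (8 of 9 measured, 164.3 to 526.1 CPM against 174.2 to 262.8 CPM). Their part in the levels of Pkhd1 and Prune2 was not tested. The other marker lists had these summed levels in old knockout and old control libraries. Satellite cells (7 of 7 measured) had 39.0 to 58.2 against 34.7 to 45.0 CPM, adipocytes (6 of 6) 237.6 to 349.4 against 223.2 to 362.4 CPM, and endothelial cells (6 of 6) 123.2 to 247.6 against 100.8 to 190.0 CPM. Smooth muscle (7 of 7) had 155.1 to 218.6 against 168.8 to 227.7 CPM, Schwann cells (7 of 7) 20.5 to 40.8 against 19.99 to 24.8 CPM, lymphocytes (2 of 7) 0.117 to 4.37 against 0.157 to 2.22 CPM, and erythroid cells (6 of 6) 91.8 to 1323 against 261.3 to 2480 CPM. Markers of multiciliated epithelium (4 of 7 measured) summed to 3.68 to 7.63 CPM in old knockout and 4.52 to 7.57 CPM in old control muscle. Mir133b, a muscle microRNA gene 64.7 kb beyond the start site of Pkhd1, was at 1.32, 0.588 and 2.48 CPM in old knockout libraries 17, 40 and 45 and at 0.236 to 0.613 CPM in old controls (log2 1.74, SE 0.546, adjusted p = 0.0903 by edgeR).

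**Figure D4:**
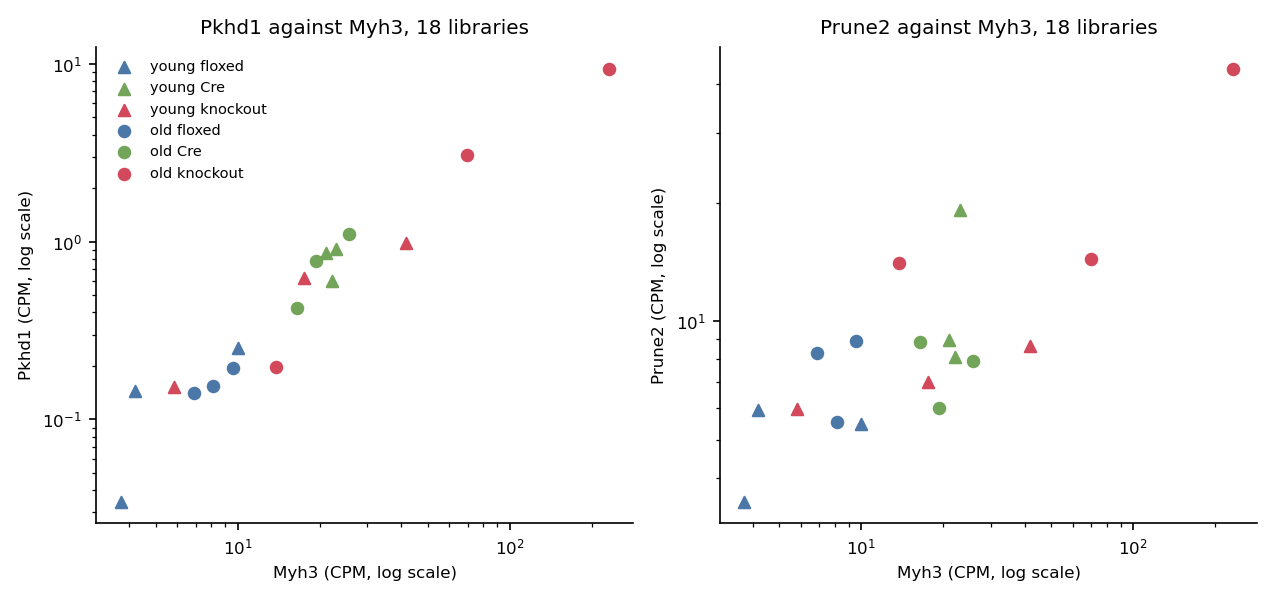
Pkhd1 (left) and Prune2 (right) against Myh3 in the 18 libraries, all in CPM on log axes, with triangles for young and circles for old libraries and colours for genotype. Pkhd1 is higher where Myh3 is higher, from floxed through Cre to old knockout libraries 17 and 45, while Prune2 is wider spread, and its highest value of 43.8 CPM is at the highest Myh3 value of 232 CPM.

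Hhipl1 had 1.67, 2.31 and 2.48 CPM in old knockout libraries 17, 40 and 45, against 0.428 to 1.38 CPM in old controls. In young muscle all 9 libraries lay between 0.721 and 1.33 CPM, and the knockout difference was -0.11 (SE 0.284, adjusted p = 0.946 by edgeR). The log2 difference of old from young was 1.24 in the knockout, -0.14 in floxed and 0.03 in Cre muscle. Its most similar gene was the collagen gene Col23a1 (r = 0.78, rho = 0.75). Nudt11, on the X chromosome, had 0.583, 0.549 and 0.370 CPM in the old knockout libraries, below all old controls at 0.943 to 1.61 CPM. Young knockout libraries had 0.570, 1.46 and 1.06 CPM and young controls 0.559 to 1.05 CPM (difference 0.26, SE 0.283, adjusted p = 0.843). The old from young difference of Nudt11 was -1.04 in the knockout and 0.56 and 0.50 in floxed and Cre muscle. The transcripts of Nudt11 and its paralog Nudt10 were 98.7% identical over 685 aligned bases, so reads of that stretch may not be assigned to one gene, and the Nudt11 values are uncertain to that extent. Nudt10 was at 0.222 to 0.777 CPM in old knockout and 0.432 to 1.03 CPM in old control muscle (log2 -0.53, SE 0.392, adjusted p = 0.43 by edgeR).

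Against each control alone the old differences kept their sign for all 10 members. Against floxed controls they were 4.66 for Pkhd1, 2.26 for Dnah8, 1.66 for Prune2, 1.45 for Hs3st3b1, 1.44 for Hhipl1 and 1.32 for Syn2 on the log2 scale. Against Cre controls the same genes had 2.46, 2.22, 1.67, 0.95, 0.94 and 1.11. The gap between both sets was widest for Pkhd1, where old Cre exceeded old floxed muscle by 2.21, and small for Dnah8 (0.03) and Prune2 (0.00). Of the lower genes, Nudt11 had -1.40 against floxed and -1.23 against Cre controls, Cuzd1 -1.12 and -1.42, Usp44 -0.86 and -1.14, and Nedd1 -0.84 and -1.0. Both sets share the 3 old knockout libraries. All old libraries entered the choice of the members, so the shared sign restates that choice and supports nothing.

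Genes related to the members were mostly not called in old knockout against both old controls. Of 180 measured genes in 11 lists built around the members' roles and around Notch, edgeR called 5, 4 higher and 1 lower, beside 1.49% of all genes. The median log2 difference of these genes was 0.09, beside 0.03 for all genes. Among 14 genes of axonemal dyneins and their assembly 1 was called, Dnah7b, an axonemal dynein heavy chain, at 3.68 ± 1.15 CPM (SD, n = 3) against 2.22 ± 0.318 CPM (SD, n = 6; log2 0.74, adjusted p = 0.0408 by edgeR). Dnah7b stood at 2.35 CPM for the library labelled old knockout 40, within the 1.84 to 2.57 CPM of the old controls. Of 23 genes of polycystins and primary cilia 1 was called, Pkd2, polycystin 2 (log2 0.45, adjusted p = 0.0381). Of 22 genes of heparan sulfate synthesis 1 was called, Sulf1, a sulfatase that trims heparan sulfate (log2 0.56, adjusted p = 0.0338), and of 3 CUB and zona pellucida domain genes 1, Tgfbr3, the betaglycan coreceptor (log2 0.59, adjusted p = 0.0401). Tgfbr3 was also the gene most similar to Syn2 (r = 0.88, rho = 0.83). Of 22 genes of the gamma-tubulin and augmin complexes 1 was called and lower, Aurka, a mitotic kinase (log2 -0.99, adjusted p = 0.0411).

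None was called among 12 hedgehog genes, 12 of synaptic vesicles, 4 listed around Prune2 and 22 of the spindle checkpoint. The same held for 23 Nudix and inositol pyrophosphate genes and 23 of Notch and O-fucose. The median log2 differences of these lists ran from -0.09 to 0.30. The closest relatives in the table had values of 0.96 for Hs3st3a1 (SE 0.353, adjusted p = 0.13 by edgeR), -0.48 for Hhip (SE 0.242, adjusted p = 0.242), 0.28 for Syn3 (SE 0.346, adjusted p = 0.651), 0.27 for Pkhd1l1 (SE 0.299, adjusted p = 0.615), -0.34 for Bnip2 (SE 0.0919, adjusted p = 0.0672) and -0.63 for Nudt4 (SE 0.181, adjusted p = 0.0793). Notch1 was at 9.26 to 13.6 CPM in old knockout against 6.20 to 10.7 CPM in old control muscle, and Hes1, a Notch target, at 6.18 to 11.6 against 6.85 to 15.2 CPM. In young knockout muscle 1 of the 180 genes was called, Pofut1 itself. The count of 5 was 0 without old floxed 48, floxed 46, Cre 35, Cre 99, knockout 17 or knockout 45, where 6, 14, 7, 13, 1 and 2 of all genes were called. It was 23 without floxed 5, where 1009 of all genes were called. Leaving out Cre 34 or the library labelled old knockout 40 gave 15, where 900 and 1040 of all genes were called. Without the library labelled old knockout 40, Dnah7b, Pkd2 and Sulf1 were still called, and Aurka and Tgfbr3 were not. Pofut1 and Notch2 were among those called there.

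The remaining most similar genes across the 18 libraries were Arfip2 for Hs3st3b1 (r = 0.87, rho = 0.85), Golph3 for Nedd1 (r = 0.88, rho = 0.85), Kbtbd12 for Usp44 (r = 0.84, rho = 0.81), Phf5a for Nudt11 (r = 0.90, rho = 0.86) and Zfp438 for Cuzd1 (r = 0.93, rho = 0.88).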

How the data were processed

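Raw counts per gene were used as deposited, for 15224 genes in 18 libraries made with a ScriptSeq v2 kit from rRNA-depleted RNA. Per the submitters' processing notes, STAR, HTSeq and DESeq2 were used and the builds GRCh38.p5 and GRCm38.p4 are named; no version, option or counting strand is given there. The log2 fold changes and adjusted p-values deposited by the authors are quoted for the young comparisons only, and 24 deposited columns of normalized values and means were not used. Counts were fitted with edgeR 4.0.16 in R 4.3.3 with 1 mean per group over all 18 libraries, after filterByExpr at a minimum count of 10, which removed no gene, and with trimmed mean of M values scaling. P values come from the quasi-likelihood F-test with 12 residual degrees of freedom, adjusted by Benjamini and Hochberg over all genes, and calls are at 0.05. Each SE of a log2 difference was derived from that test, as the absolute log2 difference divided by the square root of F. The biological coefficient of variation, 1 value common to all genes, was 20.1%, which is the relative spread between libraries beyond counting error. The script was tested on simulated counts.

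Genes were placed with RefSeq on GRCm38.p6 (14709 placed), and exon lengths and strands come from GENCODE M21. The named genes were the members, the gene with the highest Pearson correlation to each, called genes and close relatives in the lists, up to 3 neighbours within 2 Mb, and Pofut1, Notch1, Hes1, Myh3, Chrng and Xist. Glo1, Fgfr2 and Timp4 were named after their values were seen. The members and all lists were chosen with earlier results of these data known. Marker lists were summed in CPM. Alternatives were DESeq2 1.42.0, RLE factors, a filter of 1 CPM, Xist as a covariate, libraries of 1 age and leaving out each library.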

Additional observations from a re-analysis of the deposited data

Results flagged for a closer look

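In 2 of the 20 sets of 6 control libraries examined, 1 library stood far from the rest, where chance alone marks about 1 set in 20. Dnah8 was at 2.11 CPM in young floxed 32, with the next young control at 0.970 CPM. Prune2 was at 19.1 CPM in young Cre 61, with the next young control at 8.96 CPM.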

How the results depend on the processing

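With DESeq2, 1 member (Nedd1) was called in young knockout against both young controls in place of 0, while calls over all genes went from 10 to 67. No member was called in the other 3 young comparisons under any alternative, nor in any of the 4 with 1 library left out (0 to 0). The 5 related genes called in old muscle, beside 227 of all genes, became 18 with DESeq2 (1013 of all genes). They became 8 among genes of at least 1 CPM (262 of all genes) and 10 with Xist as a covariate (351). The count was 0 when only old libraries were fitted (2 of all genes), while RLE factors gave 5 (233). With 1 library left out it was 0 to 23, beside 1 to 1040 of all genes. The related counts moved broadly with those of all genes, and the cause was not tested. The young log2 differences changed sign with 1 library left out for Prune2 (-0.24 to 0.16), Syn2 (-0.062 to 0.19), Nudt11 (-0.076 to 0.56) and Cuzd1 (-0.086 to 0.33). The old differences of the members chose them, so their signs under the alternatives say nothing of stability. DESeq2 for each old control alone was added after seeing the data. The filter of 1 CPM left out Hs3st3b1 and Nudt11. Members under 1 CPM are limited by counting error.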
